A study of Zea mays with 6 samples.

Results

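Cyclins are the regulatory partners of cyclin-dependent kinases (CDKs), and a CDK is active only while a cyclin is bound to it. D-type cyclins act at the entry into the cell cycle, where they answer growth signals, A-type cyclins act from DNA replication onwards, and B-type cyclins drive entry into mitosis and are degraded as mitosis ends. CDK12 belongs to a group of kinases that in animals bind cyclin K and phosphorylate RNA polymerase II rather than drive division directly. In the stem of a grass, division takes place in the intercalary meristems near the nodes, so the cyclin genes are read there as signs of dividing tissue.

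Of the 7 genes described here, 6 are cyclins and 1 is this kinase: the D-type cyclins CYCD6 and CYC15, the A-type cyclin CYCA3-1, the B-type cyclins CYCB2-4, CYC7 and CYC8, and CDK12. They were taken by gene identifier, from the cell cycle genes that the study names and that are among the 5546 genes of the deposited table. CDKB2, which the study names with them, was not analysed here. The study lists quantitative RT-PCR primers for all of these genes. It reports cell cycle genes, among them A- and B-type cyclins and CDKs, as significantly lower in zmte1-2. Its quantitative RT-PCR values were not used here. RNA-seq compared nodes of 3 wild-type (WT) libraries of the inbred line B73 with 3 libraries of zmte1-2 (zmet1 mutant in the labels), a recessive dwarf from chemical mutagenesis that carries a premature stop in ZmTE1 and was backcrossed to B73. All plants grew in the field and were sampled 28 days after germination. The labels give the tissue as nodes with internodes, the study's methods as nodes alone, and neither says how many plants went into a library, so the p-values below measure only the spread between these libraries. The libraries of each genotype are labelled Node and numbered 1 to 3, and no source says whether a number is a replicate or the position of a node on the stem; they were taken as replicates, and if they are positions, each SD, p-value and library order below also holds the difference between nodes. The mutant was compared with WT to ask which genes respond when ZmTE1, an RNA-binding protein of the Mei2-like kind, is lost.

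The values are FPKM, the number of sequenced fragments of a gene divided by transcript length and by library size. Every gene in the table had been called different between the genotypes by the authors, so a share of "all tested genes" below is a share of called genes and not of the genome, and the 7 genes are not independent evidence of a direction. Adjusted p-values below were computed over these selected genes alone. They therefore do not hold the rate of false calls at the stated threshold. Steps in the low values place the depth at 18200000 to 18700000 fragments per library. In zmte1-2, libraries 1 and 3 correlated at 0.944 across genes, and library 2 correlated with them at 0.782 and 0.699, so library 2 stood apart. In WT, libraries 2 and 3 correlated at 0.948, and library 1 with them at 0.87 and 0.894. The targeted gene ZmTE1 (GRMZM2G085113) was at 0.51, 1.19 and 1.0 FPKM in WT libraries 1 to 3 and at 0.33, 0.1 and 0.49 FPKM in zmte1-2, too low to be tested, and since the mutation is a stop codon the level does not check the genotype. KN1 (GRMZM2G017087), the homeobox gene that marks meristem, was at 142.66, 75.29 and 108.02 FPKM in WT and at 35.33, 81.65 and 16.97 FPKM in zmte1-2, where its range overlapped that of WT. The 17 listed chlorophyll a-b binding genes, markers of green tissue, summed to 201.54 to 785.18 FPKM in WT and 102.56 to 153.21 FPKM in zmte1-2. No gene described as the small chain of rubisco or as phosphoenolpyruvate carboxylase was listed. In RNA of whole nodes, fewer dividing cells and less of a transcript per cell cannot be told apart.

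All 7 genes had a lower mean in zmte1-2 than in WT, and for 6 of them every zmte1-2 library was below every WT library. Among all 3987 tested genes, 52.8% had no overlap in this direction. The study reports cell cycle genes as lower from the same RNA-seq, and the genes here were taken from those it names. Their direction was therefore known before they were chosen. Neither the count of lower means nor the shares and medians given here for the 7 genes test that direction. CYCD6, CYC15 and CYCA3-1 passed the test (limma on log2(FPKM + 0.5), Benjamini-Hochberg adjusted p under 0.05), and CYCB2-4, CYC7, CYC8 and CDK12 did not. The 3 of 7 that fell, 42.9%, stand beside 34.2% of all tested genes called lower by the same test and 6.02% called higher. A gene was tested if it reached 1 FPKM in 3 or more libraries. CYCA3-1 did so in the WT libraries alone, so it could not be called higher and its groups could not overlap. The median log2 fold change was -1.40 over the 7 genes and -1.08 over all tested genes. At an unadjusted p under 0.05, 6 of the 7 passed as lower, beside 53.5% of all tested genes. The exact permutation test of 3 libraries against 3 cannot give a p below 0.1, and it gave 0.1 for each of the 6 genes without overlap and 0.3 for CYC7.

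**Figure D1:**
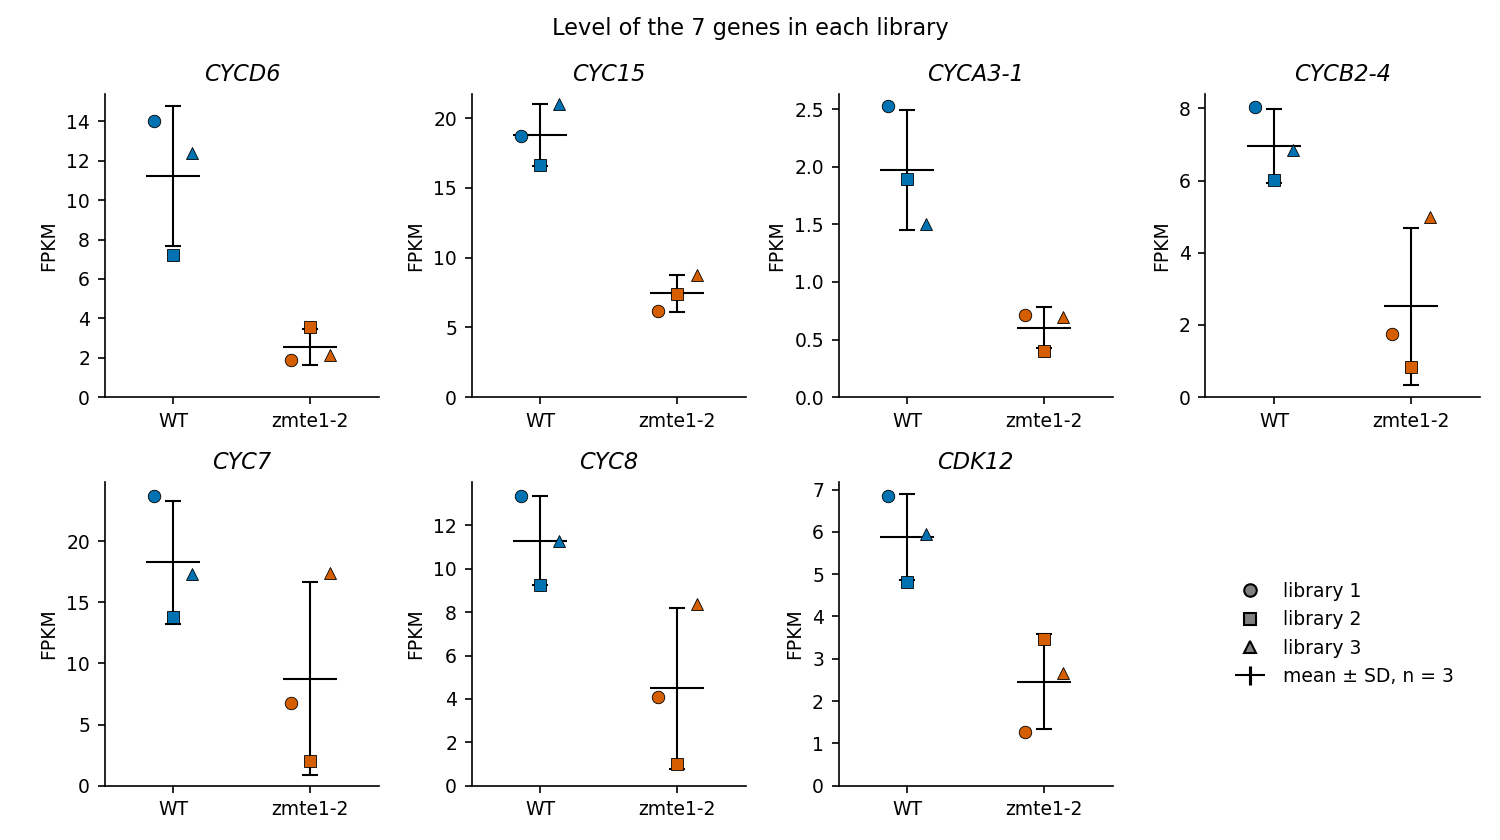
FPKM of each of the 7 genes (y axis, each panel with its own scale from 0) in the 3 WT and 3 zmte1-2 libraries; the symbol gives the library number, the long bar the mean and the whiskers the SD (n = 3). Only CYC7 overlaps between the genotypes, through zmte1-2 library 3 at 17.42 FPKM.

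CYCD6 (GRMZM2G050933) lies on chromosome 7, 156705728 to 156708177, on the minus strand in the coordinates of the deposited table, which names no genome build, and its orthology is plant cyclin D6. In Arabidopsis CYCD6;1 is known for the division that separates cortex from endodermis in the root. CYCD6 was at 14.01, 7.22 and 12.39 FPKM in WT libraries 1 to 3 and at 1.88, 3.57 and 2.12 FPKM in zmte1-2 libraries 1 to 3. The highest mutant library was below the lowest WT library by a wide margin, and WT library 2 was the low one of its group. The mean went from 11.2 ± 3.55 to 2.52 ± 0.914 FPKM (SD, n = 3), 22.5% of the WT mean. On the log2 scale it fell by 1.94 (SE 0.423, limma adjusted p = 0.0215), and 11.3% of all tested genes had a lower fold change. This was the lowest fold change among the 7. Leaving out WT library 1 or 3 ended the call (adjusted p = 0.114 and 0.147), as did leaving out zmte1-2 library 1 (0.0929), while with zmte1-2 library 2 left out the adjusted p was 0.0066.

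CYC15 (GRMZM2G006721), described as a D-type cyclin and assigned to plant cyclin D5, lies on the plus strand of chromosome 9 at 148058006 to 148060224. It was at 18.73, 16.63 and 21.03 FPKM in WT and at 6.17, 7.37 and 8.78 FPKM in zmte1-2. Within each genotype the libraries were close together, with an SD on the log2 scale of 0.165 in WT and 0.238 in zmte1-2. CYC15 had the smallest spread of the 7 in both genotypes, and 91.7% of all tested genes had a larger SD in WT and 85.6% in zmte1-2. Its mean was 18.8 ± 2.2 FPKM in WT and 7.44 ± 1.31 FPKM in zmte1-2, 39.6% of WT. It fell by 1.29 on the log2 scale (SE 0.355, limma adjusted p = 0.0351), and 36.3% of all tested genes had a lower fold change. The call held when zmte1-2 library 2 was left out (adjusted p = 0.02) and was lost with each of the others left out in turn: the adjusted p was 0.127, 0.0617 and 0.161 for WT libraries 1 to 3, 0.127 for zmte1-2 library 1 and 0.0544 for zmte1-2 library 3, and the log2 fold change was between -1.41 and -1.17. Rescaling by the median of ratios gives the libraries a common median ratio to their average. After it, the log2 fold change was -0.17 and the call was lost (limma adjusted p = 0.789). The scaling factors came from the listed genes alone, whose median log2 fold change was below 0. Such a rescaling moves that median towards 0 by construction. A call lost or gained under it, here or below, therefore does not test the change.

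Both D-type cyclins fell, and the mean of CYCD6 was lowered further. The ratio of CYCD6 to CYC15 within a library, which no scaling of whole libraries can move, was 0.748, 0.434 and 0.589 in WT and 0.305, 0.484 and 0.241 in zmte1-2. The ranges overlapped through zmte1-2 library 2, where CYCD6 was highest among the mutant libraries, and the difference between the 2 genes was not tested. Their summed level was 30.0 ± 5.34 FPKM in WT and 9.96 ± 1.66 FPKM in zmte1-2.

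The other D-type cyclins of the table moved the same way as these 2. Of 5 listed, 4 had enough signal to be tested and all 4 fell, with a median log2 fold change of -1.61, beside 34.2% of all tested genes; after rescaling by the median of ratios all 4 stayed below 0 and none passed. GRMZM2G107377, of the plant cyclin D3 orthology and the most abundant of the list, was at 12.03, 8.38 and 12.7 FPKM in WT and at 2.86, 1.8 and 3.67 FPKM in zmte1-2, with a log2 fold change of -1.84 (limma adjusted p = 0.0212). GRMZM2G161382, described as cyclin11, also of the D3 orthology, was at 8.84, 4.03 and 7.58 FPKM in WT and at 2.19, 1.14 and 2.17 FPKM in zmte1-2, with a log2 fold change of -1.62 (adjusted p = 0.0324). All 4 were lowest in zmte1-2 library 2, as were 41.8% of all tested genes, the library in which CYCD6 was highest of the mutant libraries and CYC15 was between the others.

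CYCA3-1 (GRMZM2G178215) lies on the minus strand of chromosome 9 at 147756168 to 147759399, 299 kb from CYC15, and its orthology is cyclin-A. It was the lowest of the 7, at 2.53, 1.89 and 1.5 FPKM in WT and at 0.71, 0.4 and 0.7 FPKM in zmte1-2. The 2 ranges did not overlap, but in zmte1-2 library 2 the value stands for at most 24 fragments, which alone gives a counting error of at least 20.4%. The mean went from 1.97 ± 0.52 to 0.603 ± 0.176 FPKM, 30.6% of WT. It fell by 1.16 on the log2 scale, which the pseudocount of 0.5 shortens at so low a level (SE 0.288, limma adjusted p = 0.0285). Without zmte1-2 library 1 the adjusted p was 0.0904, and without any 1 WT library the gene no longer reached 1 FPKM in 3 libraries and was not tested. The identifier matches 2 RefSeq records, a transcribed pseudogene and a protein-coding gene, and no source says how reads matching both were counted, so the level of this gene is uncertain.

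Of the 3 other A-type cyclins, 2 fell and 1 did not pass, beside 34.2% of all tested genes called lower. GRMZM2G026346 was at 28.38, 13.3 and 22.53 FPKM in WT and at 5.44, 7.4 and 9.27 FPKM in zmte1-2 (log2 fold change -1.44, limma adjusted p = 0.042). GRMZM2G017031 was nearly as low as CYCA3-1, at 2.47, 1.26 and 1.94 FPKM in WT and at 0.67, 0.47 and 0.57 FPKM in zmte1-2 (log2 fold change -1.13, adjusted p = 0.0303). This gene reached 1 FPKM in the WT libraries alone, so it could only be called lower. The third lay in the opposite direction: GRMZM2G096403, the most abundant of the A- and B-type cyclins, was at 38.62, 32.08 and 8.42 FPKM in WT and at 101.3, 103.89 and 47.34 FPKM in zmte1-2, with no overlap (11.7% of all tested genes had none in this direction) and a log2 fold change of 1.83 (adjusted p = 0.0595). It passed after rescaling by the median of ratios (2.97, adjusted p = 0.0333) and with WT library 1 and zmte1-2 library 2 both left out (2.03, adjusted p = 0.0374). With any 1 library left out it did not pass (limma adjusted p 0.0602 to 0.178). Of all tested genes, 590 were called higher after rescaling and 682 without those 2 libraries, beside 240 in the main fit.

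The 3 B-type cyclins were lower in zmte1-2 on average, and none passed limma's test, although CYCB2-4 and CYC8 had an unadjusted p under 0.05. CYCB2-4 (GRMZM2G061287, chromosome 10, 138044223 to 138048190, plus strand) was at 8.03, 6.01 and 6.84 FPKM in WT and at 1.74, 0.83 and 4.98 FPKM in zmte1-2. Mutant library 3 was close under the lowest WT library and the others were far below it. The means were 6.96 ± 1.02 and 2.52 ± 2.18 FPKM, with a log2 fold change of -1.55 (95% interval -2.86 to -0.24, limma adjusted p = 0.0565). Without zmte1-2 library 3 the log2 fold change was -2.10 and the gene passed (adjusted p = 0.0334).

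CYC7 (GRMZM2G073003, chromosome 3, 187532177 to 187535544, plus strand), described as cyclin IaZm, was at 23.69, 13.81 and 17.29 FPKM in WT and at 6.76, 2.05 and 17.42 FPKM in zmte1-2. It was the only gene of the 7 whose groups overlapped: zmte1-2 library 3 was above 2 of the 3 WT libraries. The means were 18.3 ± 5.01 and 8.74 ± 7.87 FPKM, with a log2 fold change of -1.40 and an interval that includes 0 (-3.10 to 0.29, limma adjusted p = 0.118). Leaving out zmte1-2 library 3 gave -2.09 (adjusted p = 0.0488) and leaving out library 2 gave -0.68 (adjusted p = 0.222), so the size of the difference rested on which mutant libraries were counted.

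CYC8 (GRMZM2G138886, chromosome 2, 18100584 to 18104322, plus strand) was at 13.37, 9.25 and 11.27 FPKM in WT and at 4.11, 0.99 and 8.38 FPKM in zmte1-2. Mutant library 3 again sat just under the lowest WT library, and library 2 was the lowest of all 6. The means were 11.3 ± 2.06 and 4.49 ± 3.71 FPKM, with a log2 fold change of -1.57 (95% interval -3.13 to -0.00216, limma adjusted p = 0.0771). It was -2.16 without zmte1-2 library 3 (adjusted p = 0.0462) and -0.87 without zmte1-2 library 2 (adjusted p = 0.0936).

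**Figure D2:**
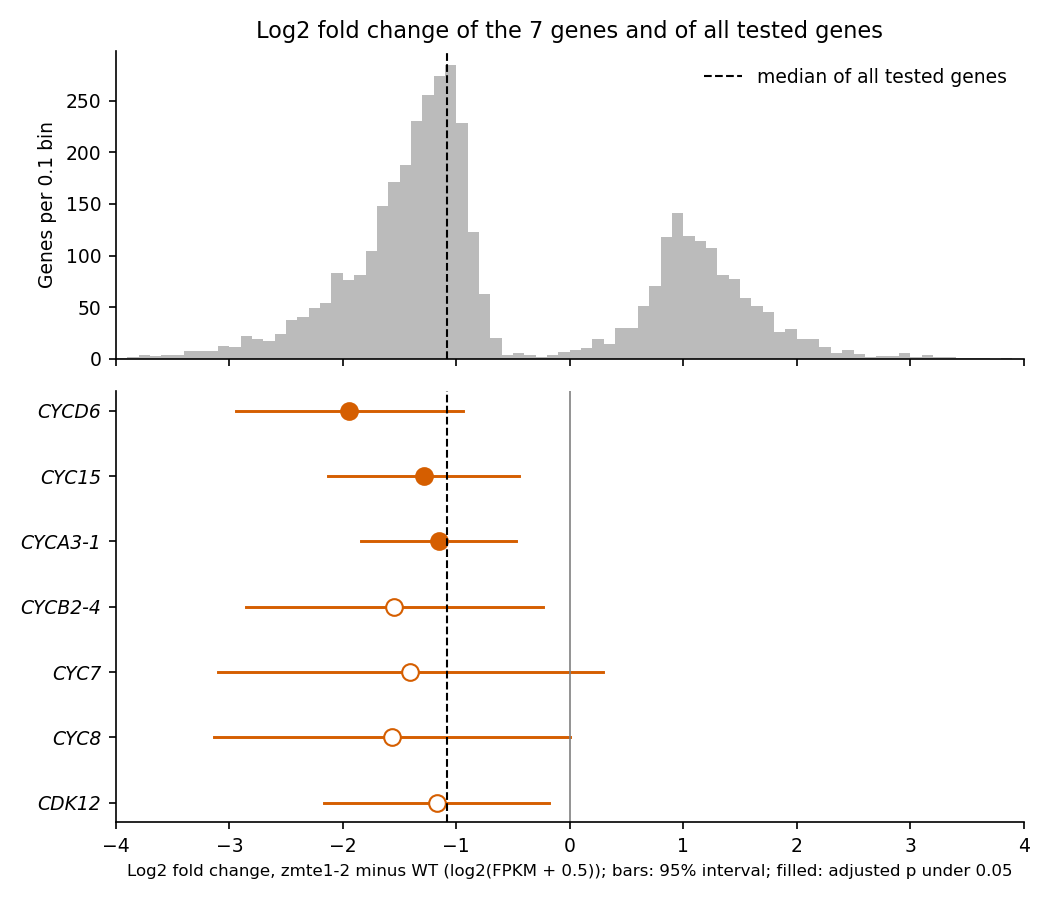
Top, number of tested genes (y axis) per bin of log2 fold change, zmte1-2 minus WT; bottom, the fold change of each of the 7 genes on the same x axis with its 95% interval, filled where the adjusted p was under 0.05. The 7 genes lie between -1.94 and -1.16, and the interval of CYC7 reaches 0.29. All 7 lie below the median of all tested genes at -1.08 (dashed), a set that holds genes listed as higher too. Of all tested genes, 11.3% had a lower fold change than CYCD6 and 44.8% a lower one than CYCA3-1.

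The B-type cyclins shared a pattern among the mutant libraries that the other 4 genes did not show. In each of the 3, zmte1-2 library 2 was lowest, library 1 was between and library 3 was highest. CYCA3-1 was also lowest in zmte1-2 library 2, and its libraries 1 and 3 were nearly level, at 0.71 and 0.7 FPKM. The SD within zmte1-2 on the log2 scale was 1.03 for CYCB2-4, 1.41 for CYC7 and 1.30 for CYC8, and within WT it was 0.195, 0.381 and 0.254. The other 4 genes had a mutant SD of 0.238 to 0.604, and the median over all tested genes was 0.593 in zmte1-2 and 0.431 in WT. Summed over the 3 B-type cyclins, the level was 45.09, 29.07 and 35.4 FPKM in WT and 12.61, 3.87 and 30.78 FPKM in zmte1-2.

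**Figure D3:**
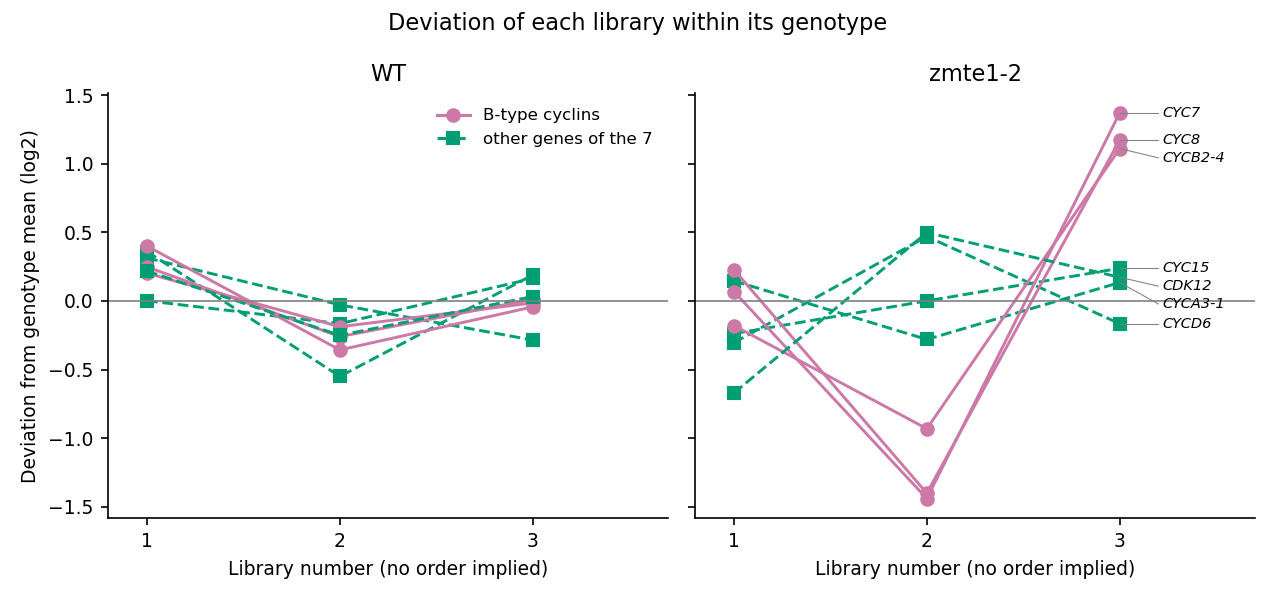
Deviation of each library from the mean of its genotype on the log2(FPKM + 0.5) scale (y axis) by library number (x axis, no order implied; lines join the values of 1 gene), for WT and zmte1-2. The B-type cyclins (circles) lie together from below -0.9 in zmte1-2 library 2 to above 1.1 in library 3, while the other 4 genes (squares) lie between -0.67 and 0.50 there.

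The 2 most abundant B-type cyclins kept nearly the same proportion in every library. The ratio of CYC7 to CYC8 was 1.77, 1.49 and 1.53 in WT and 1.64, 2.07 and 2.08 in zmte1-2, so its highest value was 1.39 times its lowest. Over the same libraries CYC7 itself spanned 2.05 to 23.69 FPKM. The ratio of CYCB2-4 to CYC7 spanned 1.69-fold, and that of CYCD6 to CYC7 spanned 14.3-fold, the widest together with CYCD6 to CYC8. Whether reads were shared between CYC7 and CYC8 was not tested, since no sequences were used here.

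The other tested genes of the B-type orthology showed the same order of libraries. GRMZM2G005619 was at 6.68, 3.31 and 3.84 FPKM in WT and at 1.34, 0.4 and 2.4 FPKM in zmte1-2, and it passed the test narrowly (log2 fold change -1.54, limma adjusted p = 0.0497). GRMZM2G073671, described as cyclin 3, was at 8.99, 4.13 and 6.62 FPKM in WT and at 2.26, 1.07 and 4.22 FPKM in zmte1-2, where 1 library overlapped WT (-1.31, adjusted p = 0.0675); both were chosen for this orthology after their values were seen. All 5 tested B-type cyclins ran library 2, library 1, library 3 from low to high in the mutant. Among all tested genes 28.8% had this order, among the mitosis and cytokinesis genes 24 of 34 and among the spindle checkpoint and anaphase-promoting complex genes 6 of 6. The order was not particular to mitotic genes. It was shared by 3 of the 4 other tested D-type cyclins, 8 of 17 replication genes and 2 of 4 genes of the E2F, RB and three-repeat MYB group. Of 7 tested CDKs, 1 had it. No test of these shares was made. KN1 and the chlorophyll a-b binding genes did not follow it: both were highest in zmte1-2 library 2. Their part in the pattern was not tested.

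CDK12 (GRMZM2G084347) lies on the plus strand of chromosome 9 at 129729202 to 129734165 and carries the orthology of human CDK12 and CDK13. It was at 6.85, 4.81 and 5.96 FPKM in WT and at 1.26, 3.46 and 2.66 FPKM in zmte1-2. The groups did not overlap, and zmte1-2 library 2, the lowest mutant library for the B-type cyclins, was the highest for CDK12. The means were 5.87 ± 1.02 and 2.46 ± 1.11 FPKM, 41.9% of WT, with a log2 fold change of -1.17 (95% interval -2.16 to -0.18), and the gene missed the threshold (limma adjusted p = 0.0563). Without zmte1-2 library 2 it passed, at -1.42 (adjusted p = 0.0197), and without the 2 libraries that stand apart, WT library 1 and zmte1-2 library 2, it passed at -1.31 (adjusted p = 0.035). That last fit, chosen after the data were seen, called 3 of the 6 genes it could test, beside 36.7% of tested genes called lower.

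Of the 5 other genes of the CDK12/13 orthology, 3 were tested. GRMZM2G018372 fell by 1.72 on the log2 scale (limma adjusted p = 0.0368), from 25.39, 15.06 and 26.81 FPKM in WT to 6.32, 10.33 and 3.67 FPKM in zmte1-2. GRMZM2G055089 was at 30.69, 21.78 and 20.75 FPKM in WT and at 8.08, 20.65 and 8.06 FPKM in zmte1-2 and did not pass (-1.08, adjusted p = 0.0886). GRMZM2G477829 did not pass either (-0.88, adjusted p = 0.0805), and these 2 were chosen after their values were seen. In all 3, as in CDK12, zmte1-2 library 2 was the highest of the mutant libraries, an order that 43.8% of all tested genes shared. Over all 7 tested CDKs of the list, 1 fell and none rose (4 lower and 0 higher at an unadjusted limma p under 0.05). Of all tested genes, 34.2% were called lower and 53.5% were lower at an unadjusted p under 0.05. The median log2 fold change of the 7 CDKs was -1.03, or 0.04 after rescaling by the median of ratios. GRMZM2G068193, of another CDK orthology, was at 33.95, 15.99 and 27.1 FPKM in WT and at 8.74, 3.91 and 13.17 FPKM in zmte1-2, in the library order of the B-type cyclins, and missed the threshold at an adjusted p of 0.0519. GRMZM2G324157, described as CDK F-2 and among the genes for which the study lists primers to check its EMS mutants, was at 13.31, 21.91 and 15.94 FPKM in WT and at 50.28, 17.89 and 35.73 FPKM in zmte1-2, the only tested kinase of the list with a higher mean in zmte1-2, and did not pass (0.91, adjusted p = 0.136). It passed after rescaling (2.04, adjusted p = 0.0496) and with zmte1-2 library 2 left out (1.32, adjusted p = 0.0239), also together with WT library 1 (1.16, adjusted p = 0.042). With any other 1 library left out it did not pass (limma adjusted p 0.147 to 0.376). Of all tested genes, 590 were called higher after rescaling and 774 without zmte1-2 library 2, beside 240 in the main fit.

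**Figure D4:**
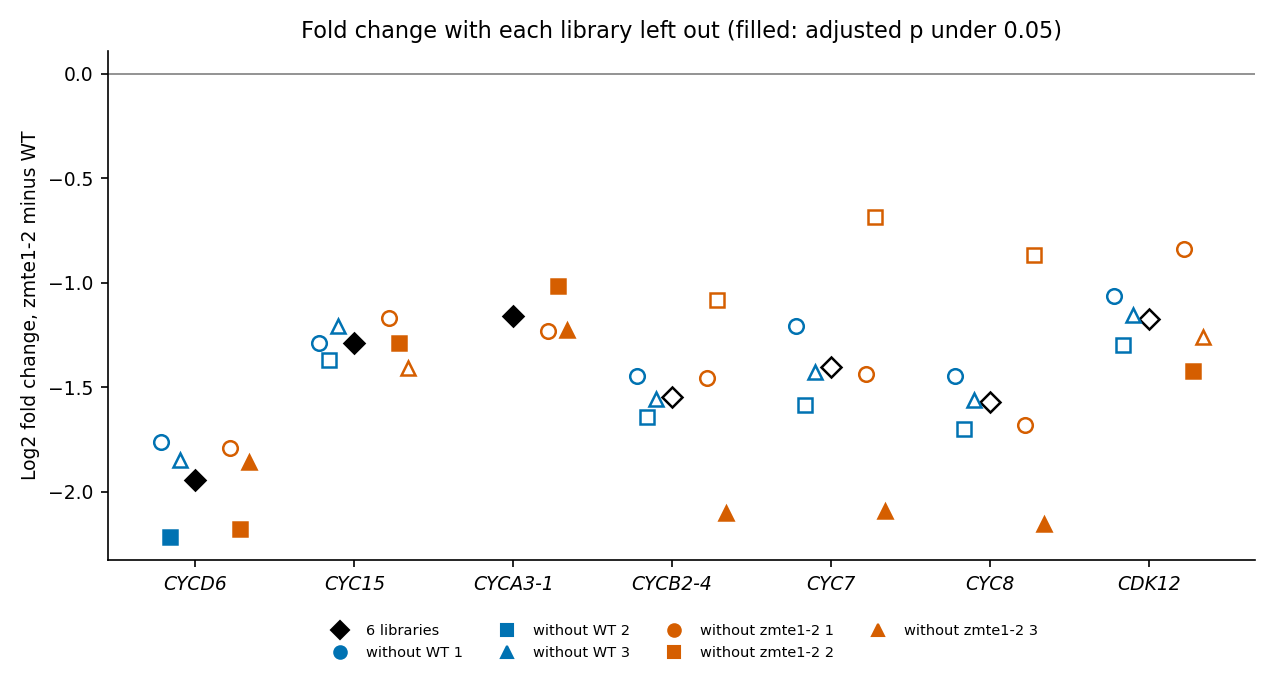
Log2 fold change of each of the 7 genes, zmte1-2 minus WT (y axis), with all 6 libraries (diamond) and with each library left out in turn (blue, WT; orange, zmte1-2; the symbol gives the library number), filled where the adjusted p was under 0.05. All values are below 0, from -2.22 for CYCD6 to -0.68 for CYC7, and the B-type cyclins pass only without zmte1-2 library 3. CYCA3-1 was not tested without a WT library and has no value there.

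The 7 genes kept a similar order of level in both genotypes. In WT, CYC15 and CYC7 were highest (means 18.8 and 18.3 FPKM, ranges overlapping), CYC8 and CYCD6 followed (11.3 and 11.2 FPKM, overlapping), then CYCB2-4 and CDK12 (6.96 and 5.87 FPKM, overlapping), and CYCA3-1 was lowest at 1.97 FPKM, its highest library below the lowest of CDK12. CYC7 lay above CYC8 in WT without overlap. In zmte1-2, CYC7 and CYC15 were again highest (8.74 and 7.44 FPKM), and every neighbour in the order overlapped with the next except CDK12 and CYCA3-1.

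Counted with each library left out, the number of the 7 that passed varied. It was 5 without zmte1-2 library 3 (CYCD6, CYCA3-1, CYCB2-4, CYC7 and CYC8), beside 22.4% of tested genes called lower, and 4 without zmte1-2 library 2 (CYCD6, CYC15, CYCA3-1 and CDK12), beside 50.0%. It was 1 with WT library 2 left out (CYCD6), beside 8.30% of tested genes called lower. It was 0 by limma when WT library 1, WT library 3 or zmte1-2 library 1 was left out, where 2, 1 and 3 of the 7 had an unadjusted p under 0.05 and at most 1 gene of the whole table was called lower. The direction stayed the same for every gene tested in each of these fits. Each fit without a WT library tested 6 of the 7, since CYCA3-1 did not reach the minimum there. A rescaling of the libraries by the median of ratios raised the median log2 fold change of all tested genes from -1.08 to -0.08, and turned 1363 genes called lower and 240 higher into 200 lower and 590 higher. Under it none of the 7 passed (1 at an unadjusted limma p under 0.05), with log2 fold changes from -0.90 for CYCD6 to -0.16 for CDK12. Because the rescaling was computed from called genes alone, the shift of the median was built in. It does not show which scaling is right.

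Across the rest of the cell cycle machinery in the table, 94 genes fell into 9 lists and 80 were tested: 25 fell, 1 rose and 54 did not pass. That is 31.2% called lower, beside 34.2% of all tested genes, and the median log2 fold change was -1.12. With WT library 1, WT library 3 or zmte1-2 library 1 left out, 0 of the list genes were called lower. After rescaling by the median of ratios, 53 of 79 tested were below 0, none passed as lower and 7 passed as higher. Of 4 genes of the E2F, RB and three-repeat MYB group, which holds both activators and repressors of replication and mitotic genes, 3 fell, beside 34.2% of all tested genes. Of these 3, 2 carry the orthology E2F7/8, the E2F factors known as repressors. GRMZM2G462623, described as DPB, the partner subunit of E2F factors, went from 4.05, 2.84 and 2.58 FPKM in WT to 0.65, 1.12 and 0.77 FPKM in zmte1-2 (log2 fold change -1.44, limma adjusted p = 0.0215). GRMZM2G378665, described as E2FE and 1 of the E2F7/8 genes, fell by 0.83 (adjusted p = 0.0398), and GRMZM2G470307, of the Myb orthology and the most abundant of the group, did not pass (-1.16, adjusted p = 0.0573). GRMZM2G378665 reached 1 FPKM in the WT libraries alone, so it could only be called lower.

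Replication genes were mixed, with 4 lower, 1 higher and 12 not passing of 17 tested, which is 23.5% lower beside 34.2% of all tested genes. After rescaling by the median of ratios 7 of the 17 were below 0, none passed as lower (limma, none at an unadjusted p under 0.05 either) and 4 passed as higher. The small chain of ribonucleotide reductase, GRMZM2G060163, which makes deoxynucleotides, fell by 1.27 on the log2 scale, from 69.16, 36.5 and 54.84 FPKM to 20.11, 19.03 and 24.64 FPKM (limma adjusted p = 0.046), and after rescaling the log2 fold change was -0.13 (adjusted p = 0.884). A subunit of the single-strand binding protein RPA, GRMZM2G061485 of the replication factor A2 orthology, fell by 1.22 (adjusted p = 0.0335), while GRMZM2G018946, of the same orthology, was the 1 gene that rose, by 0.73 (adjusted p = 0.0497), and was named after its values were seen. GRMZM2G018946 reached 1 FPKM in the zmte1-2 libraries alone, so it could only be called higher. Of 6 spindle checkpoint and anaphase-promoting complex genes 1 fell, beside 34.2% of all tested genes. It was GRMZM5G821639, a CDC20-like activator that targets mitotic cyclins for degradation (log2 fold change -1.44, adjusted p = 0.0375). The aurora kinase GRMZM2G132116, the most abundant of that list, was at 24.49, 19.72 and 19.4 FPKM in WT and at 8.89, 7.42 and 13.97 FPKM in zmte1-2 and did not pass (adjusted p = 0.0592).

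Of 34 mitosis and cytokinesis genes, 9 fell and none rose by limma, and 24 were lower at an unadjusted p under 0.05. These 24 stand beside 53.5% of all tested genes. All 34 were below 0 (28 after rescaling by the median of ratios), where the median of all tested genes, -1.08, also lay. The 9 are 26.5% of the list, beside 34.2% of all tested genes called lower. Among the 9, GRMZM5G860469 reached 1 FPKM in the WT libraries alone, so it could only be called lower. GRMZM2G002559, a kinesin, fell by 1.65 on the log2 scale, from 33.06, 21.47 and 28.45 FPKM to 7.47, 8.14 and 9.56 FPKM (limma adjusted p = 0.0229). The kinesin KIN-7G gene GRMZM2G338928 fell by 1.29 (adjusted p = 0.0353). GRMZM2G101874, a microtubule-associated protein gene of the MAP65 kind, whose products bundle microtubules in the phragmoplast, was the most abundant of the list and did not pass (-1.13, adjusted p = 0.0527). The 1 tested CDK regulator, the CKS1 subunit gene GRMZM2G038485, did not pass (-1.13, adjusted p = 0.0627). Neither did the 2 tested other cyclins, which had higher means in zmte1-2: GRMZM2G076468, described as cyclin-P4-1-like but assigned the orthology of a peroxidase (1.53, adjusted p = 0.0765, but 2.66 with an adjusted p of 0.0367 after rescaling and 2.20 with an adjusted p of 0.00642 without zmte1-2 library 2), and GRMZM2G462118, described as cyclin-T1-1 (1.21, adjusted p = 0.206), whose 3 mutant values were 4.86, 26.43 and 2.81 FPKM. With any 1 library other than zmte1-2 library 2 left out, GRMZM2G076468 did not pass (limma adjusted p 0.167 to 0.192).

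**Figure D5:**
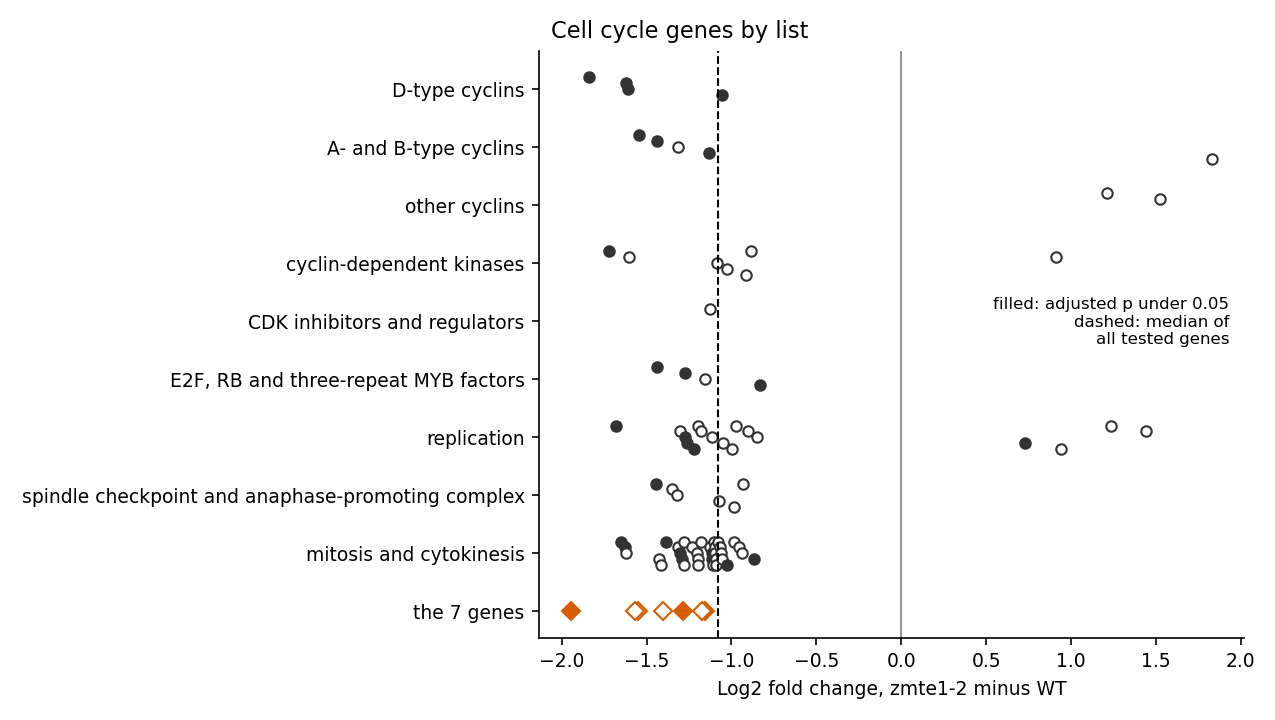
Log2 fold change, zmte1-2 minus WT (x axis), of each tested gene of the 9 cell cycle lists (circles) and of the 7 genes (orange diamonds), filled where the adjusted p was under 0.05; the dashed line is the median of all tested genes. In the list of D-type cyclins all 4 tested genes passed, and 72 of the 80 circles lie below 0, as does the median of all tested genes.

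The tested genes most like each of the 7 over the 6 libraries were found by the root mean square difference of log2 values centred on each gene's mean, among 3289 genes with a mean of at least 2 FPKM. For CYCD6 they were GRMZM2G016939 (0.0711) and GRMZM2G100475 (0.0756), both without a described function, and for CYC15 a gene described as peroxidase 72, GRMZM2G023840 (0.0809), and GRMZM2G701688, described as NETWORKED 1D (0.0936). For CYCA3-1 they were a GRF transcription factor gene, GRMZM2G033612 (0.0757), and an extensin-like gene, GRMZM5G894582 (0.085). These differences are small beside the median difference of all compared genes, which was between 0.73 and 1.21 for the 7. For CYCB2-4 they were GRMZM2G060253 (0.116) and the spindle checkpoint gene MAD2, GRMZM2G047143 (0.128), which was at 25.28, 16.14 and 19.02 FPKM in WT and at 6.77, 3.49 and 17.02 FPKM in zmte1-2. For CYC7 they were GRMZM2G052740 (0.106) and GRMZM2G050268 (0.129), and for CYC8 GRMZM2G143791 (0.112), described as a GPI-anchored protein precursor, and GRMZM2G331566 (0.112). CYC7 and CYC8 differed from each other by 0.154, and only 4 of these 3289 genes were closer to CYC7 than CYC8 was. For CDK12 they were GRMZM2G015666 (0.079), described as a DNA binding protein, and GRMZM2G097573 (0.104).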

How the data were processed

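The authors deposited 1 table of FPKM for 3 WT and 3 zmte1-2 libraries of random-primed cDNA, with the mean of each genotype. For aligner, counting, strand and genome build, nothing is given in the sources used here. The labels and the study's methods name different extraction reagents. The authors' log2 ratios, p-values and q-values were not used. Library numbers were taken as replicates, which no source states. The 3987 of 5546 genes that reached 1 FPKM in 3 or more libraries were tested with limma 3.58.1 in R 4.3.3 on log2(FPKM + 0.5) (eBayes with trend, two-sided, Benjamini-Hochberg over these genes, called under 0.05). A gene that reached this minimum in 1 genotype alone could be called only as higher in that genotype. The script was tested on simulated data, with changed genes drawn from well expressed ones.

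Depth was estimated from the step of 1 fragment in short single-transcript genes, where 47.5 to 61.7% of values came within 0.1 of a whole multiple, too few for a count test. Numbers of fragments are upper bounds from the gene's span. The 7 genes, lists and tests were chosen with earlier results of these data known, and list patterns were tightened after the matched descriptions were seen. Named were the 7, ZmTE1 and KN1, in each list the most abundant gene and the 2 with the smallest p, and the 2 genes most like each of the 7. Alternatives were other pseudocounts, FPKM minimums, scaling, no variance trend, a replicate block and fewer libraries.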

Additional observations from a re-analysis of the deposited data

How the results depend on the processing

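All 7 fold changes kept their sign under every alternative that could be run, and CYCA3-1 and CDK12 could not be tested in some for low values. The 3 calls among the 7 genes held with pseudocounts of 0.1 and 1, with no FPKM minimum and with no variance trend. A minimum of 5 FPKM left 5 of the 7 tested, with 2 calls. Other values are counts of genes called by limma, for the 7, for the lists (main values 25 lower and 1 higher) and for all genes. Median-of-ratios rescaling, whose factors came from the called genes alone, gave 0 of the 7, 0 list genes lower and 7 higher. Of all genes it gave 200 lower and 590 higher. With no FPKM minimum 16 list genes were lower. With the minimum of 5 FPKM, 16 list genes were lower and 0 higher, and 782 of all genes were lower. The 1 higher list gene became 0 with a pseudocount of 0.1 and with no variance trend. Leaving out 1 library gave 0 to 5 of the 7, 0 to 32 list genes lower and 0 to 4 higher, and 0 to 1942 of all genes lower and 0 to 774 higher. Leaving out WT library 1 and zmte1-2 library 2 together, chosen after the data were seen, gave 12 list genes lower and 4 higher, and 682 of all genes higher. The cause of these differences was not tested.

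With the library number as a replicate block, 0 of the 7 passed (5 at an unadjusted p under 0.05), 0 list genes were lower and 0 higher, and 1 of all genes was lower and 1 higher. Deviations of same-numbered libraries correlated at -0.305, -0.398 and 0.406, and only zmte1-2 library 3 correlated best with its own number. The deviations of 3 libraries sum to 0 within a genotype, which forces part of these correlations. They cannot settle whether the numbers pair the libraries. At the depth of these libraries, counting error limits CYCA3-1 most.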
